A study of Mus musculus with 20 samples.

Results

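Tsku and 7 other genes for proteins that hepatocytes release into blood (Lect2, Fetub, Angptl8, Inhbe, Inhbc, Enho and Selenop) were followed in mouse liver by RNA-seq. All 8 were in the table, out of 16115 genes. The genes were chosen with results of these data known: Tsku was selected on one of the smallest p-values between untreated mutants and wild type, and the other 7 are named liver-secreted regulators set beside it. Values of that contrast are therefore given as a description, with no test.

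Livers came from male mice of 5 groups, collected after 18 months of treatment. There were 3 libraries of d2-/- mutants given metformin (label met), 5 of d2-/- mutants given oxymetholone (oxm), 3 of d2-/- mutants given both (met+oxm, called the combination here), 3 of untreated d2-/- mutants and 4 of untreated wild type. The genotype is the Fancd2 mutation, which disables a gene of the Fanconi anaemia pathway of DNA crosslink repair. Metformin lowers glucose output by the liver, and oxymetholone is an anabolic androgen given against marrow failure. No wild-type mice received a drug, so each drug was seen on the mutant background only. The RNA of Fancd2 was not analysed here, and the genotype of the libraries rests on their labels. The labels give no strain, age, dose, route or hour of collection, and do not say that each library came from a separate animal. The p-values measure only the spread between these libraries.

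Hepatokines are proteins through which the liver signals to other organs. Their transcripts respond to feeding, hormones, stress and, for several of them, the daily clock, and liver RNA tells nothing of secretion or of levels in blood. Tsku encodes Tsukushi, a small leucine-rich repeat proteoglycan that binds growth factors and Wnt receptors in vertebrate embryos and is linked to energy and cholesterol metabolism as a liver product. LECT2 is a leukocyte chemotactic factor linked to insulin resistance in muscle, and fetuin-B, the product of Fetub, is a protease inhibitor that keeps the mouse egg coat open to sperm. ANGPTL8 takes part in the inhibition of lipoprotein lipase after feeding. Inhbe and Inhbc encode the activin subunits beta-E and beta-C, Enho encodes the peptide adropin, and Selenop encodes the selenium transporter selenoprotein P.

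Total counts were 20199671 to 32747780 per library, and every member had at least 118 counts in every library. Summed hepatocyte markers (10 of 10 listed in the table, among them Alb, Apoa1 and Ttr) ran from 39200 to 90500 CPM (each count divided by its scaled library size) over the 18 libraries. Markers of other cells varied more: summed bile duct markers (7 of 8 in the table, among them Krt19 and Sox9) were 1470 CPM in untreated mutant replicate 2, 670 in combination replicate 3 and 659 in metformin replicate 3, with the other 15 libraries at 35.0 to 423 CPM. In bulk tissue, fewer cells of a type and less RNA per cell cannot be told apart. Metformin replicate 3 and combination replicate 3 were the 2 treated libraries with the most bile duct and stellate cell markers, and were known from earlier results to lie farthest from the rest. Both were kept, and a result that turns without them is given with its new value. Replicate numbers follow the order of the sample records and pair nothing.

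Tsku had low RNA in untreated mutants and higher RNA in each treated group and in wild type. It measured 60.9, 46.7 and 49.0 CPM with metformin, 26.1, 39.2, 73.8, 112.8 and 124.9 CPM with oxymetholone, and 83.9, 114.0 and 29.4 CPM with the combination. In untreated mutants it measured 12.96, 10.01 and 19.0 CPM, and in wild type 28.2, 87.7, 64.0 and 83.7 CPM. The 3 untreated mutant libraries lay below all 15 others, a pattern that 15 genes of the table shared (0.0931% of 16115) and that the choice of Tsku favoured. Within the oxymetholone group the libraries differed 4.79-fold, and within the combination 3.87-fold, so the treated and wild-type groups overlapped one another throughout.

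**Figure D1:**
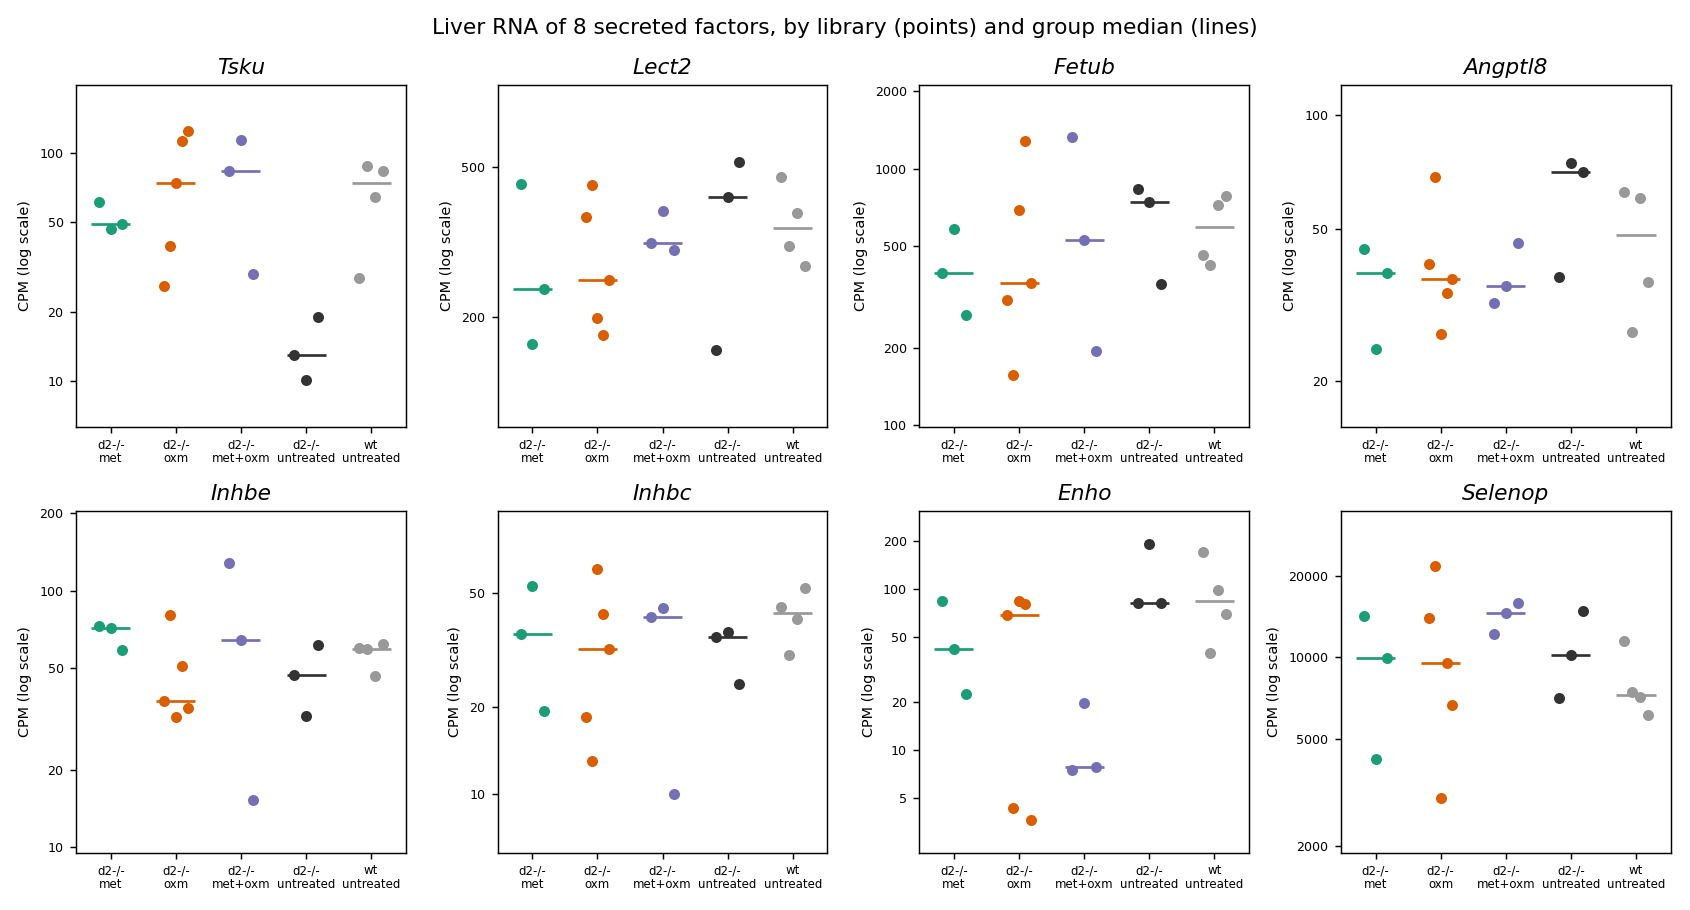
CPM of the 8 genes on a log axis, 1 point per library and a line at each group's median, with treated d2-/- mutants left, untreated d2-/- mutants next and wild type right. The untreated mutants sit at 10.01 to 19.0 CPM for Tsku, below every other library, and the combination sits at 7.48 to 19.5 CPM for Enho.

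The order of the group means of Tsku was 75.8 ± 42.9 CPM with the combination (SD, n = 3), 75.4 ± 43.6 CPM with oxymetholone (n = 5), 65.9 ± 27.2 CPM in wild type (n = 4), 52.2 ± 7.62 CPM with metformin (n = 3) and 14.0 ± 4.56 CPM in untreated mutants (n = 3). The first 4 of these means differed by less than the SD of the oxymetholone group. Untreated mutants stood 2.24 ± 0.56 log2 units below wild type (standard error from the edgeR fit), a difference of −2.24 that selected the gene and gets no test. The groups did not overlap in that contrast, as for 6.32% of all genes, and edgeR called 0% of all genes there (416 genes at an unadjusted p under 0.05, and 0 called by DESeq2 or limma-voom).

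Tsku was higher than in untreated mutants by 1.90 ± 0.57 log2 units with metformin, by 2.43 ± 0.55 with oxymetholone and by 2.44 ± 0.59 with the combination. These 3 comparisons reuse the untreated mutant libraries whose low values helped to choose Tsku, and they share those libraries with one another, so they are not independent of the choice or of each other. In each of them the groups did not overlap, with the treated libraries above, as for 7.26% of genes in either direction with metformin, 3.46% with oxymetholone and 8.66% with the combination. By edgeR's quasi-likelihood test, adjusted over 16115 genes, none passed the threshold of 0.05: the adjusted p was 0.579 with metformin (unadjusted 0.00426), 0.231 with oxymetholone (0.000416) and 0.493 with the combination (0.000674). Over all genes edgeR called 0% with metformin (914 at an unadjusted p under 0.05, 11 called by DESeq2 and 0 by limma-voom), 0.0434% with oxymetholone and 0.0186% with the combination.

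DESeq2, which called more genes in these comparisons, called Tsku with oxymetholone (log2 difference 2.41, adjusted p 0.00099; 0.478% of all genes called) and with the combination (2.42, adjusted p 0.0128; 0.267% called). With limma-voom Tsku was called with the combination (2.74, adjusted p 0.0285; 0.0993% called). No tool called it with metformin. In the authors' deposited table Tsku differed from untreated mutants by a log2 fold change of 2.46 with metformin (adjusted p 0.9997), 2.13 with oxymetholone (0.148) and 2.68 with the combination (0.193). All these p-values use the untreated mutants whose low values helped to choose Tsku, so they are not independent of that choice.

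Against wild type, Tsku differed by −0.34 ± 0.52 log2 units with metformin, 0.19 ± 0.46 with oxymetholone and 0.20 ± 0.52 with the combination. The wild-type libraries are also part of the contrast that chose Tsku. The edgeR adjusted p of these differences was 0.926 or higher. Over all genes edgeR called 0% with metformin (722 at an unadjusted p under 0.05, 49 called by DESeq2 and 0 by limma-voom), 0.0993% with oxymetholone and 0.0248% with the combination. The sign with oxymetholone turned to −0.06 without wild-type replicate 1 (the lowest of its group at 28.2 CPM), and to −0.07 without oxymetholone replicate 5. The sign with the combination turned to −0.05 without wild-type replicate 1 and to −0.22 without combination replicate 2.

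Among treated mutants, Tsku was 0.53 ± 0.50 log2 units higher with oxymetholone than with metformin, 0.54 ± 0.56 higher with the combination than with metformin and 0.01 ± 0.49 higher with the combination than with oxymetholone. These comparisons use no library of the contrast that chose the gene, and their edgeR adjusted p was 0.999 or higher. Over all genes edgeR called 0.0558% for oxymetholone over metformin, 0% for the combination over metformin (552 at an unadjusted p under 0.05, 10 called by DESeq2 and 3 by limma-voom) and 0% for the combination over oxymetholone (461, 1 and 0). The interaction, the oxymetholone difference with metformin present minus the difference without it, was −1.89 ± 0.76 (unadjusted p 0.0235, edgeR adjusted p 0.863). It contains the untreated mutants whose low values helped to choose Tsku, so its size and p are not independent of that choice. Over all genes the interaction had 0% called by edgeR, with 483 at an unadjusted p under 0.05, 3 called by DESeq2 and 0 by limma-voom.

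**Figure D2:**
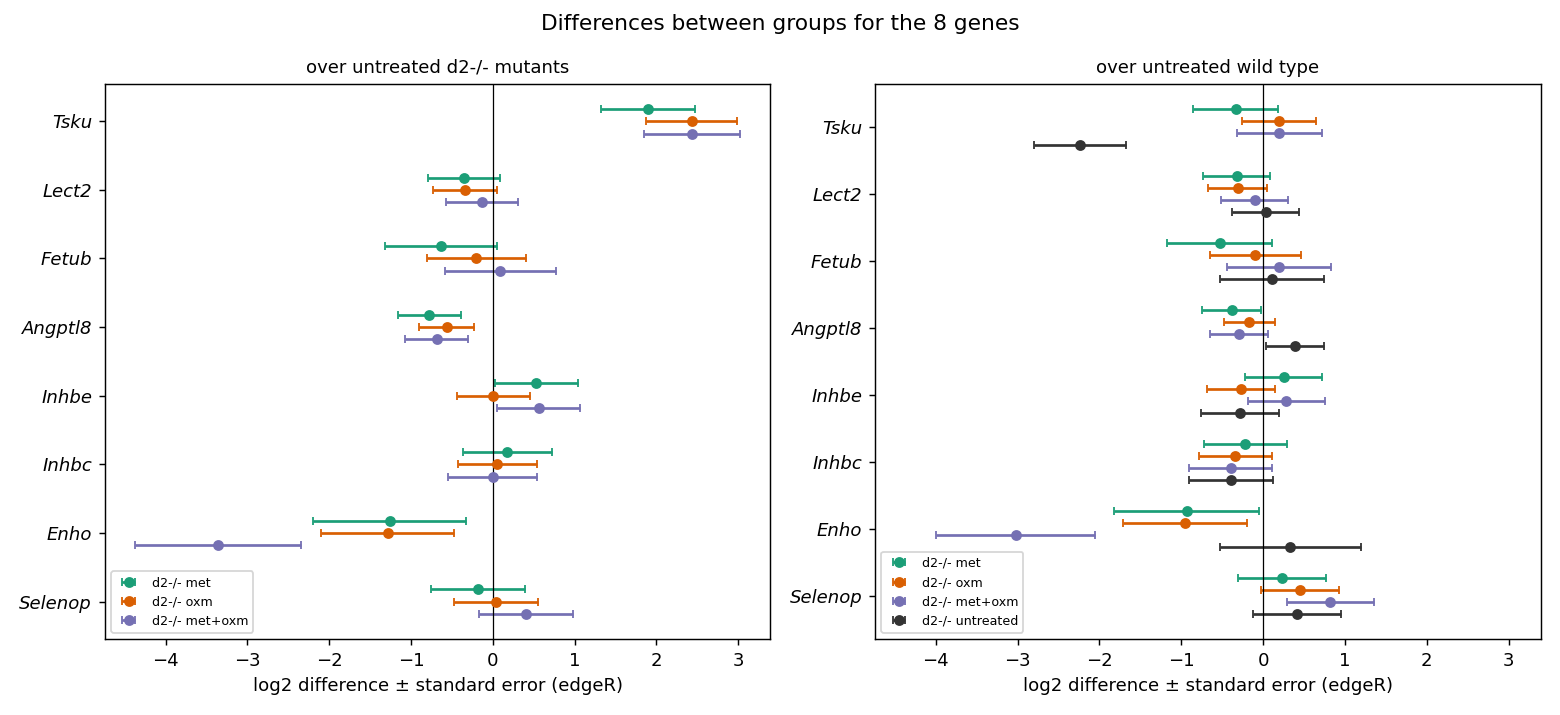
Log2 differences with standard errors from edgeR, of treated d2-/- mutants over untreated d2-/- mutants on the left and of all 4 mutant groups over wild type on the right. Tsku lies at 1.90 to 2.44 on the left, Enho with the combination lies at −3.36 there, and the other 6 genes stay between −0.78 and 0.56 on the left.

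The promoter of Tsku is shown because the gene's RNA set the untreated mutants apart. RefSeq (GRCm38.p6, a build other than the GRCm39 of the authors' counts) places its start on the minus strand of chromosome 7, in the window chr7:98361279-98361578 that spans 250 bases before and 50 after the start. The window had 69.0% G and C and 28 CpG, against medians of 52.7% and 7 over 32851 windows. Capitals mark GC boxes (GGGCGG), which 35.7% of all windows hold on either strand.
Tsku promoter: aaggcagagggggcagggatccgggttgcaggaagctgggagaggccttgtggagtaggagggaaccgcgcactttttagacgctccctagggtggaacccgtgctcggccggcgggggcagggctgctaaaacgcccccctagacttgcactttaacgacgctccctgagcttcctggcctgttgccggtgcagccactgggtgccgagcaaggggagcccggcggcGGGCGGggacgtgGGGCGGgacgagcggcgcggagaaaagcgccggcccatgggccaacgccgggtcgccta
The 2 matches lie 22 and 9 bases before the start. A second RefSeq start of Tsku gives an overlapping window with the same 2 matches.

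Genes whose RNA followed Tsku most closely over the 18 libraries were looked for among 8883 genes with a mean log2 CPM of at least 2, by Pearson correlation of log2 CPM. The 5 highest were Per1 (r = 0.91), Ddhd2 (0.86), Lrp4 (0.84), Per2 (0.82) and Usp22 (0.80). Among the lowest were Pot1a (−0.79), Gtpbp3 (−0.78), Armc9 (−0.77) and Thyn1 (−0.76). Per1 and Per2 are repressors of the circadian clock, Ddhd2 is a lipase, Lrp4 a receptor of the LDL receptor family and Usp22 a histone deubiquitinase. With each group's mean subtracted, r with Tsku was 0.83 for Per1, 0.80 for Per2 and −0.86 for Pot1a.

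Per1 averaged 6.06 ± 3.004 CPM with metformin, 7.30 ± 3.71 with oxymetholone, 7.80 ± 4.19 with the combination, 2.30 ± 1.67 in untreated mutants and 5.68 ± 1.30 in wild type (SD, n = 3, 5, 3, 3 and 4). The lowest libraries of Per1 were untreated mutants at 1.53 and 1.148 CPM, and the third untreated mutant was at 4.22 CPM, inside the range of the treated groups. Combination replicate 3 had 2.99 CPM of Per1 and 29.4 CPM of Tsku, the lowest of its group in both. The points share libraries and depth, the genes were picked as the extremes of 8883, and no p is given. The labels give no hour of collection, and its part in the levels of Per1, Per2 and Tsku was not tested.

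**Figure D3:**
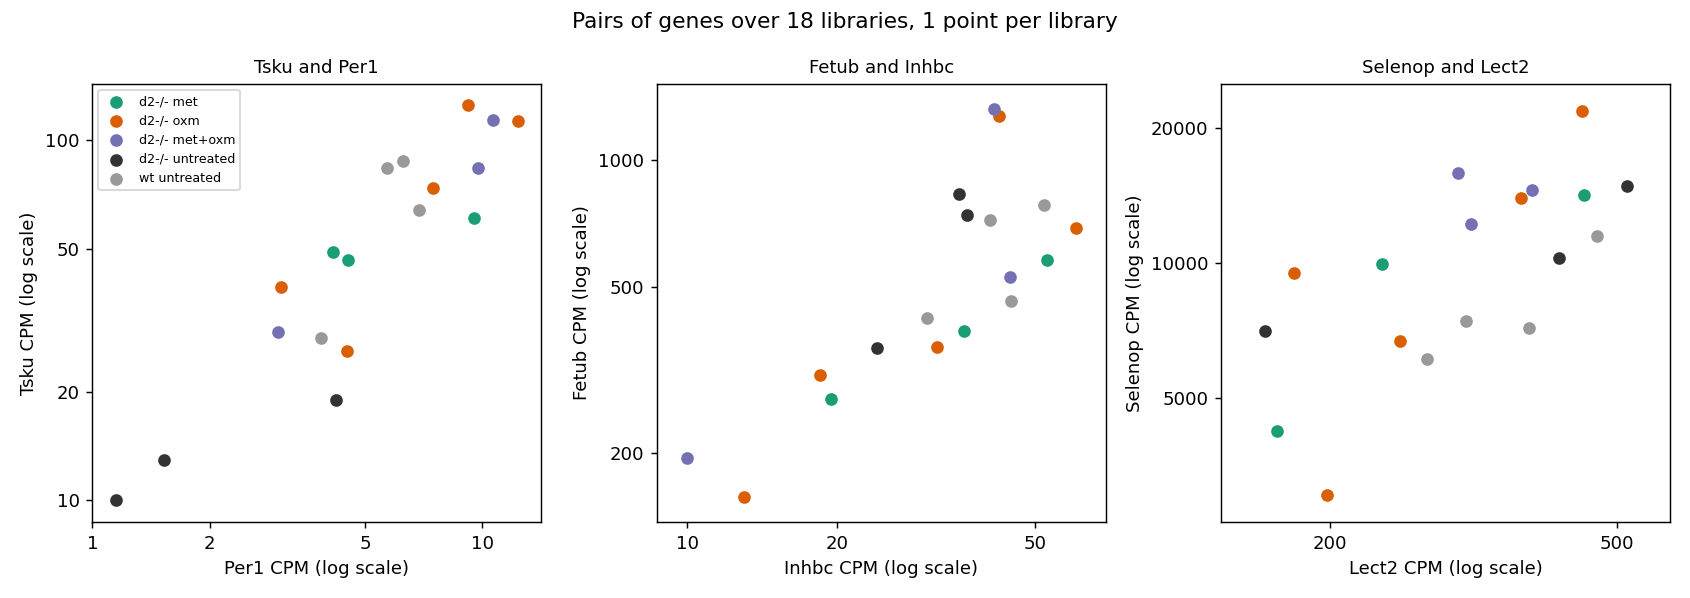
CPM of 3 pairs of genes on log axes, 1 point per library, coloured by group. Tsku follows Per1 (r = 0.91), Fetub follows Inhbc (r = 0.81) and Selenop follows Lect2 (r = 0.69) over 18 libraries, with points of the 5 groups mixed apart from the untreated mutants low in Tsku.

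The genes beside Tsku on chromosome 7 differed less between untreated mutants and wild type than Tsku did, by less than their standard errors. Acer3, an alkaline ceramidase gene, averaged 25.5 ± 6.63 CPM in untreated mutants and 24.2 ± 3.24 CPM in wild type, and Emsy 7.13 ± 0.61 and 7.09 ± 1.07 CPM (SD, n = 3 and 4). Their correlation with Tsku over 18 libraries was −0.19 and −0.00. Capn5 and Lrrc32, at 0.97 and 0.79 CPM in untreated mutants against 1.53 and 1.39 CPM in wild type, correlated with Tsku at 0.45 each.

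Tsukushi is a ligand-binding proteoglycan, so its family and Wnt genes of liver were described as lists. Of the 15 listed small leucine-rich repeat proteoglycans 11 were in the table and none was called by edgeR in any comparison. In them 9 of 11 lay above 0 with metformin over untreated mutants (median log2 difference 1.33, against 0.04 over all genes), 8 of 11 with oxymetholone (0.33, against 0.03) and 9 of 11 with the combination (0.72, against 0.00). Lum, encoding lumican, averaged 40.9 ± 47.0 CPM with the combination and 13.9 ± 1.76 CPM in untreated mutants (n = 3 each), where the edgeR difference was 1.56 ± 0.78 (adjusted p 0.92). Summed stellate cell and fibroblast markers, a list that shares Dcn and Lum with this family, were 223 to 642 CPM with metformin, 75.5 to 534 with oxymetholone, 239 to 867 with the combination and 189 to 344 CPM in untreated mutants, and their part in these differences was not tested. Among 19 Wnt receptors and hepatic Wnt targets none was called. In these 18 of 19 lay above 0 with metformin over untreated mutants (median 0.41, against 0.04 over all genes), 14 of 19 with oxymetholone (0.21, against 0.03) and 13 of 19 with the combination (0.06, against 0.00). For untreated mutants over wild type 3 of 19 lay above 0 (median −0.36, against −0.02 over all genes). Over wild type 9 of 19 lay above 0 with metformin (median −0.02, against 0.02). With oxymetholone 4 did so (−0.13, against 0.01), and with the combination 6 (−0.25, against 0.02). Glul, glutamine synthetase of the cells around the central vein, averaged 742 ± 192 CPM with oxymetholone (n = 5), 785 ± 141 CPM with the combination (n = 3) and 357 ± 75.5 CPM in untreated mutants (n = 3). With metformin Glul averaged 582 ± 242 CPM (n = 3), and in wild type 734 ± 224 CPM (n = 4). Untreated mutants differed from wild type in Glul by −1.04 ± 0.33 log2 units, given without a test. The edgeR differences of Glul from untreated mutants were 1.05 ± 0.32 with oxymetholone (adjusted p 0.648) and 1.14 ± 0.35 with the combination (0.776). Of 12 genes of thyroid hormone receptors and their hepatic targets, none called, 8 lay above 0 with metformin (median 0.16), 9 with oxymetholone (0.20) and 5 with the combination (−0.24), all over untreated mutants and beside the same medians over all genes.

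In CPM Enho was low in every combination library and in part of the oxymetholone libraries. It measured 7.48, 19.5 and 7.85 CPM with the combination, 69.4, 4.38, 84.7, 81.2 and 3.68 CPM with oxymetholone, and 83.9, 42.3 and 22.3 CPM with metformin. In untreated mutants it measured 81.9, 191.6 and 82.3 CPM, and in wild type 168.6, 39.9, 98.4 and 70.3 CPM. The oxymetholone group fell into 3 libraries at 69.4 to 84.7 CPM and 2 at 4.38 and 3.68 CPM, both below all combination libraries. Over 18 libraries Enho spanned 52.0-fold, the widest range of the 8 genes.

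In CPM the combination libraries of Enho lay below all untreated mutant, wild-type and metformin libraries. Groups without overlap in CPM were found for 8.66% of all genes over untreated mutants, 9.46% over wild type and 4.39% over metformin. In the authors' log2 residuals, corrected further by a method that is not stated, the combination stayed below untreated mutants (6.22 to 7.03). Combination replicate 3 at 5.59 there lay above wild-type replicate 4 (5.25) and metformin replicate 4 (5.55). The share of all genes without overlap in the residuals was not computed. By edgeR the combination differed by −3.36 ± 1.02 log2 units from untreated mutants (unadjusted p 0.00428, adjusted 0.776), by −3.03 ± 0.97 from wild type (0.00652, adjusted 0.536), by −2.09 ± 0.97 from metformin (0.0452, adjusted 0.999) and by −2.07 ± 0.91 from oxymetholone (0.0362, adjusted 0.956). None passed after adjustment over all genes. DESeq2 called Enho over untreated mutants (−3.37, adjusted p 0.0457) and over wild type (−3.00, adjusted p 0.0497), where it called 0.465% of all genes. In the authors' deposited table, whose test is not stated, Enho differed by −2.72 between combination and untreated mutants (p 0.0291, adjusted 0.492). Between combination and metformin it differed there by −1.96 (p 0.119, adjusted 0.999).

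Metformin alone and oxymetholone alone differed from untreated mutants by −1.26 ± 0.94 and −1.29 ± 0.81 log2 units in Enho, with edgeR adjusted p of 0.927 and 0.877. Untreated mutants and wild type differed by 0.33 ± 0.86, and by −0.20 without untreated mutant replicate 3. The sign of oxymetholone over metformin (−0.02 ± 0.83) turned to 0.59 without metformin replicate 1, and to 0.27 and 0.28 without oxymetholone replicate 2 or 5. Over the 18 libraries log2 CPM of Enho correlated at 0.56 with the summed hepatocyte markers, at −0.61 with those of lymphocytes and at −0.53 with those of stellate cells and fibroblasts (Pearson, n = 18 libraries, a description). Summed hepatocyte markers were 44100 to 90500 CPM with the combination, 55700 to 76200 with oxymetholone, 39200 to 77900 with metformin, 63700 to 84300 in untreated mutants and 48600 to 84100 in wild type, and their part in the Enho differences was not tested. The exons of Enho overlap those of Dnai1, a ciliary dynein gene on the opposite strand, in GENCODE M21. Dnai1 correlated with Enho at 0.79 and reached at most 4.603 CPM. The strand setting of the authors' counting is not stated, so reads of the pair may be mixed.

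Angptl8 was lower on average in each treated group than in untreated mutants, within the spread of CPM. It measured 44.3, 24.3 and 38.4 CPM with metformin, 40.7, 68.6, 26.7, 34.0 and 37.1 CPM with oxymetholone and 32.2, 35.5 and 46.1 CPM with the combination, against 37.5, 74.9 and 70.9 CPM in untreated mutants and 62.6, 26.8, 60.5 and 36.4 CPM in wild type. In CPM all groups overlapped, since the lowest untreated mutant lay at 37.5 CPM. On the scale of the authors' log2 residuals, untreated mutants (5.489 to 5.863) lay above metformin (5.093 to 5.455) and the combination (4.926 to 5.140). Oxymetholone (5.076 to 5.490) overlapped them there, and the share of all genes without overlap in the residuals was not computed. The authors' deposited table, whose test is not stated, gave −0.64 for the combination over untreated mutants (p 0.0115, adjusted 0.409). The edgeR differences from untreated mutants were −0.78 ± 0.38 with metformin (unadjusted p 0.0585, adjusted 0.889), −0.56 ± 0.34 with oxymetholone (adjusted 0.877) and −0.69 ± 0.38 with the combination (adjusted 0.959). The 3 differences share the untreated mutants. Of 12 other genes of lipoprotein lipase control in the table (Lpl, Angptl4 and others) none was called. In that list 8 lay above 0 with metformin over untreated mutants (median 0.12, against 0.04 over all genes), 7 with oxymetholone (0.05, against 0.03) and 6 with the combination (0.04, against 0.00). Pcsk6, a convertase that cleaves lipases, averaged 33.9 ± 14.8 CPM with oxymetholone (n = 5) and 16.5 ± 2.52 CPM in untreated mutants (n = 3), an edgeR difference of 1.03 ± 0.42 (adjusted p 0.877). Angptl8 lies inside Dock6 on the opposite strand without shared exons, and is induced by LXR, SREBP1c and insulin in mouse liver as background. Of 22 genes of that lipid programme, none called, 14 lay above 0 with metformin over untreated mutants (median 0.11), 15 with oxymetholone (0.19) and 11 with the combination (−0.03), beside the same medians over all genes.

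Inhbe and Inhbc, neighbours on the minus strand of chromosome 10, followed each other only loosely. Inhbe measured 72.7, 71.6 and 58.6 CPM with metformin, 37.2, 80.5, 32.0, 50.8 and 34.7 CPM with oxymetholone and 128.1, 64.1 and 15.2 CPM with the combination, against 46.7, 32.4 and 61.2 CPM in untreated mutants and 59.6, 59.1, 46.4 and 62.1 CPM in wild type. The combination libraries held both the highest and the lowest value of the 18. Its smallest p by edgeR was for the combination over oxymetholone (0.55 ± 0.45, unadjusted 0.231, adjusted 0.956), and without combination replicate 1 that difference was −0.25.

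Inhbc measured 35.9, 52.8 and 19.4 CPM with metformin, 18.5, 12.98, 60.2, 42.2 and 31.7 CPM with oxymetholone and 41.3, 44.4 and 9.99 CPM with the combination, against 35.1, 36.5 and 24.1 CPM in untreated mutants and 44.6, 30.3, 40.4 and 52.1 CPM in wild type. In CPM no pair of groups was without overlap. By the authors' log2 residuals the combination (5.197 to 5.395) lay above oxymetholone (4.419 to 5.086) and untreated mutants (4.888 to 5.172). It overlapped metformin and wild type there, and the share of all genes without overlap in the residuals was not computed. The edgeR differences of Inhbc ran from −0.39 to 0.18, the lowest for the combination over wild type (−0.39 ± 0.51, unadjusted p 0.45, adjusted 0.84). That value was 0.03 without combination replicate 3, the lowest library, and 0.05 without that library and metformin replicate 3. In the authors' deposited table Inhbc differed by 0.55 between combination and oxymetholone (p 0.0067, adjusted 0.937), where the edgeR value on counts was −0.06 ± 0.48. Inhbe and Inhbc correlated at 0.34 over 18 libraries and at 0.32 with group means subtracted. An antisense gene, Gm47200, overlaps exons of Inhbc in GENCODE M21 and was not analysed here.

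Activins signal through receptors that phosphorylate SMAD proteins, and follistatin (Fst) binds and blocks them. Of 23 other genes of activin and TGF-beta signalling in the table none was called. In that list 16 lay above 0 with metformin over untreated mutants (median 0.22, against 0.04 over all genes), 14 with oxymetholone (0.05, against 0.03) and 17 with the combination (0.22, against 0.00). Inhba, the activin subunit beta-A, averaged 3.50 ± 0.89 CPM with oxymetholone (n = 5) and 9.05 ± 3.15 CPM in untreated mutants (n = 3), an edgeR difference of −1.37 ± 0.35 (unadjusted p 0.00109, adjusted 0.382). Inhbb, the subunit beta-B, averaged 2.68 ± 2.44 CPM with the combination and 0.37 ± 0.18 CPM in untreated mutants (n = 3 each), a difference of 2.83 ± 0.78 (unadjusted p 0.0021, edgeR adjusted 0.67).

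Inhbe is known as a target of the stress factors ATF4 and CHOP in cultured liver cells. None of 17 listed ATF4 and CHOP targets was called, and 10 lay above 0 with metformin over untreated mutants (median 0.10, against 0.04 over all genes), 15 with oxymetholone (0.50, against 0.03) and 14 with the combination (0.34, against 0.00). Ddit3, which encodes CHOP, averaged 6.13 ± 1.91 CPM with oxymetholone (n = 5), 8.03 ± 1.27 CPM with the combination (n = 3) and 3.29 ± 0.67 CPM in untreated mutants (n = 3). Its edgeR differences were 0.89 ± 0.29 with oxymetholone (adjusted p 0.714) and 1.28 ± 0.32 with the combination (adjusted p 0.509). Inhbe itself differed by 0.01 ± 0.45 with oxymetholone and 0.56 ± 0.51 with the combination.

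The promoters of Angptl8 and Inhbe are shown because, of the 7 members with a RefSeq window (none was given for Enho), they held an 8-base C/EBP-ATF response element (TGATGCAA, either strand), found in 0.895% of all 32851 windows. They are the GRCm38.p6 windows chr9:21835260-21835559 on the plus strand and chr10:127351799-127352098 on the minus strand. Capitals mark that element, written as its reverse complement TTGCATCA in Inhbe, and a CCAAT box (CCAAT, in 37.4% of windows) in Inhbe.
Angptl8 promoter: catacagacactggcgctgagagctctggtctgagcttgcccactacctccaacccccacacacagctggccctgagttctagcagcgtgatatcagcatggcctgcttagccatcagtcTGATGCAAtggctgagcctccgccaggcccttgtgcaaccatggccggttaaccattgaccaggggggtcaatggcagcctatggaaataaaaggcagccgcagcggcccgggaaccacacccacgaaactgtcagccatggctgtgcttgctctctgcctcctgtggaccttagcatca
Inhbe promoter: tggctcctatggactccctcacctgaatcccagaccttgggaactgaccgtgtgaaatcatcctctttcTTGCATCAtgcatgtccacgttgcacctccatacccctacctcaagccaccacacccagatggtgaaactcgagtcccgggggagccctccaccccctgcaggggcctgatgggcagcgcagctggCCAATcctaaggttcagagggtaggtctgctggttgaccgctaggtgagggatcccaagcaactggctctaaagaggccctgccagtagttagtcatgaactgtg
The element begins 130 bases before the start in Angptl8 and 181 bases before it in Inhbe. Angptl8 and Inhbe did not vary together: r was −0.11 over 18 libraries and −0.04 with group means subtracted. A match of letters is a description of the window and says nothing of binding.

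Fetub varied widely within the oxymetholone and combination groups. It measured 391, 579 and 269 CPM with metformin, 308, 158, 689, 1276 and 359 CPM with oxymetholone and 1324, 528 and 195 CPM with the combination, against 829.5, 740 and 356 CPM in untreated mutants and 461, 420, 721 and 780 CPM in wild type. The coefficient of variation was 79.9% with oxymetholone and 85.0% with the combination, against 30.4% in wild type, and in CPM all groups overlapped. By the authors' log2 residuals the combination (9.23 to 9.97) lay above oxymetholone (7.86 to 9.13) and wild type (8.64 to 8.85). Untreated mutants (8.92 to 9.58) also lay above wild type there, and the share of all genes doing so was not computed. Its smallest p by edgeR was for the combination over metformin (0.72 ± 0.68, unadjusted 0.303, adjusted 0.999), and without combination replicate 1 the value was −0.19. In the authors' deposited table, whose test is not stated, Fetub differed by 1.08 between combination and oxymetholone (p 0.00202, adjusted 0.883). The edgeR value of the same difference on counts was 0.29 ± 0.60.

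Fetub and Inhbc rose and fell together across libraries (r = 0.81, and 0.85 with group means subtracted). Their 2 lowest libraries were the same, combination replicate 3 and oxymetholone replicate 2, at 195 and 158 CPM of Fetub and 9.99 and 12.98 CPM of Inhbc. Over 18 libraries log2 CPM of Fetub and Inhbc correlated at −0.50 and −0.62 with summed stellate cell and fibroblast markers. With those of hepatocytes they correlated at 0.28 and 0.47. The 2 lowest libraries had 867 and 534 CPM of the stellate cell list. Metformin replicate 3 had 642 CPM of it, with 579 CPM of Fetub and 52.8 CPM of Inhbc. The part of these cells in the correlation of the 2 genes was not tested. Fetub also correlated with its neighbours on chromosome 16, Ahsg for fetuin-A (0.85) and Hrg for histidine-rich glycoprotein (0.89). Their promoters are shown because the 2 genes moved together: the first window of Fetub is chr16:22918132-22918431 on the plus strand and that of Inhbc chr10:127370499-127370798 on the minus strand (RefSeq, GRCm38.p6). Capitals mark a TATA box (TATAAA, in 13.6% of windows), a GC box (GGGCGG) and CCAAT boxes (CCAAT, once on each strand) in Fetub, and a nuclear receptor half-site (AGGTCA, in 16.3% of windows) in Inhbc.
Fetub promoter: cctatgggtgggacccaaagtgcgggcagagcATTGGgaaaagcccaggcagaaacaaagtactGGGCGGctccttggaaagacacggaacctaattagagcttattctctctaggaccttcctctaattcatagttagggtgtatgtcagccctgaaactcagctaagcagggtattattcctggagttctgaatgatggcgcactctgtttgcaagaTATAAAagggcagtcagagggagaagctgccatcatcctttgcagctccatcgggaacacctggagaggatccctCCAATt
Inhbc promoter: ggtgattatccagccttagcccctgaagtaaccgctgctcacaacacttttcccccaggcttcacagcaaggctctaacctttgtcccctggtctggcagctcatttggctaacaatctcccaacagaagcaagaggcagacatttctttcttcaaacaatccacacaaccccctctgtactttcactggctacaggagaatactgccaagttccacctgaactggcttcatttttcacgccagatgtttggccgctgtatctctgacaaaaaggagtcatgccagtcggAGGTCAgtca
No motif searched was found in both windows. The TATA box of Fetub begins 31 bases before the start, and the half-site of Inhbc lies 40 bases after it. The other motifs searched on both strands were an E-box (CACGTG, in 7.15% of windows) and a cyclic AMP response element (TGACGTCA), neither found in a member's window, a steroid receptor half-site (AGAACA, in 19.0% of windows, once in the second window of Fetub) and an HNF1 half-site (GTTAAT, in 7.1% of windows, once in Lect2). No match overlapped another in the members' windows.

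In CPM Lect2 varied 3.17-fold over all libraries and differed little between groups. It measured 451, 169 and 237 CPM with metformin, 368, 447, 198, 178 and 250.5 CPM with oxymetholone and 314, 381 and 301 CPM with the combination, against 163, 415 and 516 CPM in untreated mutants and 470, 309, 377 and 273 CPM in wild type. All groups overlapped in CPM, and its edgeR differences ran from −0.35 to 0.56, with the smallest p for the interaction (0.56 ± 0.59, unadjusted 0.356, adjusted 0.863). By the authors' log2 residuals wild type (8.35 to 8.74) lay above untreated mutants (7.89 to 8.33) and metformin (7.99 to 8.08). Metformin also lay below oxymetholone (8.10 to 8.45) and the combination (8.12 to 8.38) there. The share of all genes doing so was not computed. The deposited log2 fold change of untreated mutants over wild type was −0.43, against 0.03 ± 0.41 by edgeR, both given without a test. Lect2 correlated at −0.70 with the summed bile duct markers: untreated mutant replicate 2, with 1470 CPM of these markers, had the lowest Lect2 of all libraries. The part of bile duct cells in Lect2 levels was not tested.

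Selenop had the highest level per length of the 8 transcripts. It measured 14184, 4207 and 9926 CPM with metformin, 13936, 21838, 3029, 9498 and 6678 CPM with oxymetholone and 12234, 14558 and 15858 CPM with the combination, against 7056, 10227 and 14836 CPM in untreated mutants and 11494, 7415, 7131 and 6105 CPM in wild type. In CPM all combination libraries lay above all wild-type libraries, as for 9.46% of genes in either direction. By the authors' log2 residuals these groups overlapped, at 13.15 to 13.59 with the combination and 12.94 to 13.29 in wild type. The edgeR difference of the combination over wild type was 0.82 ± 0.53 (unadjusted p 0.142, adjusted 0.778), and that over untreated mutants was 0.41 ± 0.58. Over 18 libraries Selenop correlated at −0.63 with the share of mitochondrial counts, which was 1.54 to 3.29% with the combination and 2.95 to 3.85% in wild type. Its lowest library, oxymetholone replicate 3 at 3029 CPM, had the highest such share, 8.19%. The part of this share in the Selenop differences was not tested. Exons of Selenop overlap those of Ccdc152 on the opposite strand, which correlated with it at 0.88 and reached at most 29.4 CPM.

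Selenop is the carrier of selenium, built from selenocysteine by a dedicated set of genes. Of 26 other selenoprotein and selenocysteine synthesis genes none was called, and 9 lay above 0 with metformin over untreated mutants (median −0.11, against 0.04 over all genes), 10 with oxymetholone (−0.15, against 0.03) and 8 with the combination (−0.18, against 0.00). Scly, the lyase that recovers selenium from selenocysteine, averaged 67.3 ± 11.6 CPM with the combination and 101.2 ± 4.98 CPM in untreated mutants (n = 3 each), an edgeR difference of −0.59 ± 0.24 (unadjusted p 0.0232, adjusted 0.866).

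Per kilobase of exon, so that genes can be compared, the median level over 18 libraries was 3546 CPM per kb for Selenop, 339 for Lect2, 252 for Fetub, 55.0 for Enho, 43.9 for Angptl8, 19.5 for Inhbc, 18.0 for Tsku and 11.1 for Inhbe. Exon lengths came from GENCODE M21, a different build from that of the counts. At its highest library Tsku reached 40.9 CPM per kb and at its lowest 3.28.

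Of the 8 genes 5 formed 2 sets by how they varied between libraries of the same group. With group means subtracted, Lect2, Angptl8 and Selenop correlated positively with one another (0.76 to 0.80) and negatively with Fetub and Inhbc (−0.38 to −0.66). Tsku lay nearer to the second set, at 0.55 with Inhbc, 0.49 with Fetub and −0.46 with Angptl8. Enho correlated at 0.47 with both Fetub and Inhbc, and between −0.17 and −0.03 with the other 5 genes. Inhbe correlated with the other 7 genes at −0.15 to 0.36.

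**Figure D4:**
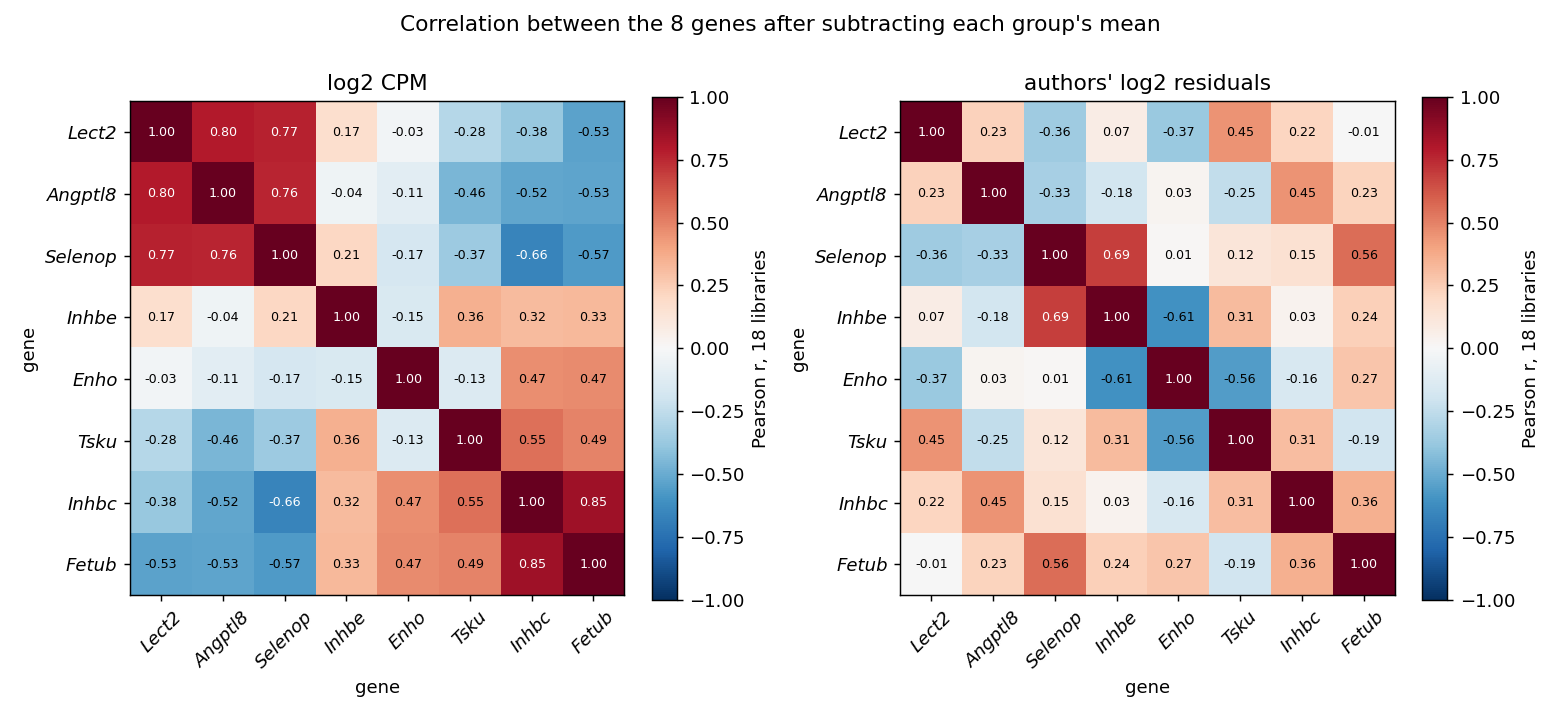
Pearson correlation between the 8 genes over 18 libraries with each group's mean subtracted, from log2 CPM on the left and from the authors' log2 residuals on the right. On the left Lect2, Angptl8 and Selenop form a block (0.76 to 0.80) opposite to Fetub and Inhbc, and on the right that block is not seen, with Lect2 and Selenop at −0.36.

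These correlations depended on the scale of the deposited values. In the authors' log2 residuals, which the authors had corrected further by a method that is not stated, Fetub and Inhbc correlated at 0.36 with group means subtracted, Lect2 and Angptl8 at 0.23, and Lect2 and Selenop at −0.36. The range of Selenop over libraries was 0.88 log2 units in the residuals and 2.85 in CPM, that of Lect2 0.85 and 1.66, and that of Inhbc 0.98 and 2.59. For Tsku the 2 ranges were 3.88 and 3.64 log2 units, and for Enho 4.601 and 5.70.

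Over the 10 tested comparisons, which exclude that of untreated mutants with wild type, edgeR called none of the 8 genes. Enho had an unadjusted p under 0.05 in 4 comparisons, and Lect2, Fetub, Angptl8, Inhbe, Inhbc and Selenop in none. Tsku had one in 4, all of which contain the untreated mutants that helped to choose it, and its unadjusted edgeR p was 0.308 or higher in the other 6 comparisons. The authors' deposited table called none of the 8 in its 7 comparisons, with 47 genes called in all for oxymetholone over untreated mutants and 0 elsewhere.

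Other hepatokines were described as a list of 32 genes, of which 30 were in the table. None was called by edgeR in any comparison. Over untreated mutants 8 of 30 lay above 0 with metformin (median log2 difference −0.19, against 0.04 over all genes), 18 with oxymetholone (0.08, against 0.03) and 12 with the combination (−0.10, against 0.00). For oxymetholone over metformin 24 of 30 lay above 0 (median 0.37, against −0.02). Serpinb1a, an elastase inhibitor linked to beta cell growth, averaged 30.5 ± 18.7 CPM with metformin and 6.55 ± 0.62 CPM in untreated mutants (SD, n = 3 each), an edgeR difference of 2.22 ± 0.59 (unadjusted p 0.00159, adjusted 0.579). Igfbp1, the insulin-repressed binding protein of insulin-like growth factors, averaged 80.5 ± 44.1 CPM with oxymetholone (n = 5) and 9.50 ± 2.02 CPM with metformin (n = 3), a difference of 3.08 ± 0.89 (edgeR adjusted p 0.283). Apom, which carries sphingosine phosphate on HDL, averaged 260 ± 82.7 CPM with metformin and 490 ± 135 CPM in untreated mutants (n = 3 each), a difference of −0.92 ± 0.32 (edgeR adjusted p 0.649).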

How the data were processed

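RNA of mouse liver was measured by RNA-seq, with RNA from a Qiagen RNEasy kit and a standard library of a sequencing service, per the labels' protocols. Reads were handled on GRCm39, per the submitters' processing notes, while the aligner, the counter, the annotation and its strand setting are not stated in these sources. Of 20 labelled samples 18 had columns, and 2 (replicate 1 of the untreated mutants, replicate 2 of metformin) were not analysed here. The authors deposited raw counts per gene, a CPM signal scaled by library, log2 residuals, and log2 fold changes with p-values for 7 comparisons, per the file headers. The deposited CPM signal matched CPM computed here to within 0.000497% for values over 1 CPM. The authors' log2 residuals were used only for ranges and correlations.

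All other values were computed from the deposited counts with edgeR 4.0.16 in R 4.3.3 across all 16115 genes: filterByExpr (which removed 0 genes), TMM scaling, a quasi-likelihood fit (robust, 1 coefficient for each of 5 groups, 18 libraries) and Benjamini-Hochberg adjustment over all genes with a threshold of 0.05. CPM used the TMM-scaled library sizes. Standard errors were derived from this fit, as the absolute log2 difference divided by the square root of the F statistic of the quasi-likelihood test. A prior count of 2 entered log2 CPM. The 13 genes with an identifier but no symbol stayed in the fit. Medians of log2 differences over all genes are given beside the lists. Simulated counts with 200 changed genes were used to test the procedure.

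Alternatives were DESeq2 1.42.0, the size factors of DESeq2 within edgeR, no filter, a mean CPM of at least 1, a fit of only the compared groups, limma-voom with sample quality weights (limma 3.58.1), leaving out each library, and, added after seeing the data, leaving out metformin replicate 3 with combination replicate 3. The members, the lists, the markers and the rule for named genes were chosen with earlier results of these data known. Named genes were the 8 members, the 5 genes most and the 5 least correlated with Tsku (mean log2 CPM of at least 2, without predicted genes, clones and pseudogenes; 1 of the least correlated is not reported here), and from each list the 2 with the smallest p in a comparison, of which the text gives a part, picked after their values were seen. Promoters (250 bases before to 50 after the start) are those of RefSeq on GRCm38.p6, and exon lengths those of GENCODE M21.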

Additional observations from a re-analysis of the deposited data

How the results depend on the processing

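No paired analysis was possible because the labels carry no replicate numbers. Of 410 alternative values of the members' differences 388 were counted as the same, 17 as turned in sign and 5 as newly called, and of 147 counts of members called 143 stayed at 0. These totals overstate stability. The setting without a filter repeats the main fit, since the filter removed 0 genes, so it could only be counted as the same. The 388 also include 13 values of Tsku in untreated mutants over wild type, the contrast that chose it. Counted as the same was Enho in untreated mutants over wild type, although it went from 0.33 to −0.20 without untreated mutant replicate 3. DESeq2 called 1 member for oxymetholone over untreated mutants, 2 for the combination over untreated mutants and 1 for the combination over wild type, and limma-voom 1 for the combination over untreated mutants. Tsku was among the members called in each of these over untreated mutants, where its p is not independent of its choice. The signs that turned for Tsku were those of oxymetholone over wild type (−0.07 to 0.41 with 1 library left out, −0.0652 without oxymetholone replicate 5), the combination over wild type (−0.22 to 0.59) and the combination over oxymetholone (−0.41 to 0.39). Others were Fetub (−0.19 to 1.16, combination over metformin), Inhbe (−0.25 to 1.03, combination over oxymetholone), Inhbc (−0.71 to 0.0334, combination over wild type, and 0.048 without metformin replicate 3 and combination replicate 3) and Enho (−0.37 to 0.59 for oxymetholone over metformin, and 0.89 for the interaction by limma-voom, against −0.81). For Tsku over untreated mutants, leaving out 1 library gave 1.71 to 2.18 (metformin), 2.17 to 2.71 (oxymetholone) and 2.02 to 2.82 (combination). The lowest edgeR adjusted p among these was 0.166. The low untreated mutants that helped to choose Tsku enter every one of these fits. Its choice favoured large values there, so the ranges are not taken as a sign of stability. Enho in the combination over untreated mutants ranged from −3.95 to −2.83 when 1 library was left out.

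Counts of all genes called also moved between settings. They are out of 16115 genes and those of the members out of 8, so the 2 kinds of count are not compared. DESeq2 called 11, 77 and 43 genes for metformin, oxymetholone and the combination over untreated mutants, against 0, 7 and 3 by edgeR, 49, 89 and 75 over wild type, against 0, 16 and 4, and 103 for oxymetholone over metformin, against 9. For the combination over metformin and over oxymetholone and for the interaction DESeq2 called 10, 1 and 3, against 0. Limma-voom called 14 and 16 for oxymetholone and the combination over untreated mutants, 43 and 35 over wild type, and 3 for the combination over metformin. In the compared groups alone the combination had 0 over untreated mutants and 1 over wild type, and oxymetholone 25 over wild type and 0 over metformin. Without metformin replicate 1 edgeR called 153 genes for oxymetholone over metformin and 67 for metformin over wild type, and without metformin replicate 4 it called 57 and 7. Without untreated mutant replicate 2 or 4 the combination had 0 called over untreated mutants, and 5 without metformin replicate 3 and combination replicate 3. Oxymetholone had 4 over untreated mutants without untreated mutant replicate 4, 10 or 9 over wild type without wild-type replicate 1 or 4, and 5 over metformin without metformin replicate 3. The combination had 2 over metformin without combination replicate 3. The cause was not tested.

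With 3 to 5 libraries a group the standard error of a member's log2 difference was 0.31 to 1.25, and Tsku at 2.43 ± 0.55 was not called by edgeR. The members had 118 to 674447 counts in a library.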
